A study of Mus musculus with 6 samples.

Results

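The genes described here are the LRRC8 subunits, Lrrc8a to Lrrc8e, and other chloride channel and chloride transporter genes (Ano6, Ano10, Clcn3, Clcn5 and Clic4), in mouse 3T3-F442A cells with and without a SWELL1 knockout. They were chosen by gene symbol, as rows of the deposited table whose gene names hold a member, and 9 of the 10 named genes had a row among 31097 rows. Ano10 was not analysed here. The row of Lrrc8a is shared with Nup188 and Phyhd1, and the row of Lrrc8d with D830014E11Rik, so these are called the Lrrc8a row and the Lrrc8d row. RNA was sequenced from 3 SWELL1 KO libraries, whose cells had the SWELL1 gene (official symbol Lrrc8a) targeted by CRISPR/Cas9, and from 3 WT libraries of 3T3-F442A cells whose SWELL1 was intact. Cells of both groups were of the same mouse cell line, 3T3-F442A, and were grown in RPMI with FBS. No label gives the number of KO clones, a stage of differentiation or the meaning of the mark D3, which the sample names of the KO libraries alone carry. A difference between clones, or whatever D3 stands for, cannot be told apart from the genotype, and the p-values cover only the spread between these libraries.

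As background, LRRC8 proteins form a channel for anions that swelling of the cell opens, and that lets out chloride and small organic solutes. LRRC8A is the subunit that every working channel needs, and it joins one or more of LRRC8B to LRRC8E, which set what the pore passes. In fat cells, SWELL1 has been tied to the growth of the cell as it fills with lipid and to insulin signalling. The other genes encode proteins of different architecture: an anoctamin of the plasma membrane, exchangers of chloride for protons in endosomes, and a chloride intracellular channel protein.

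Of the 8 members that could be tested, 2 were higher in KO (Clcn5 and Lrrc8c) and 4 were lower (Clic4, the Lrrc8d row, the Lrrc8a row and Ano6), while Lrrc8b and Clcn3 did not pass. Of these, 3 members moved by more than 1 on the log2 scale: Clcn5 was 2.37-fold higher in KO, the Lrrc8d row 2.51-fold lower and Clic4 2.25-fold lower. The count is to be read against the whole table, where 65.2% of the 10515 tested rows passed in either direction, 28.5% higher and 36.7% lower in KO. A share of 6 in 8 is thus close to the background and says nothing particular about chloride channels. For the 3 larger changes, the background is the 1791 of 10515 tested rows that passed with an absolute log2 fold change of 1 or more. The difference between these shares was not tested. The groups did not overlap for 7 of the 8 tested members, against 71.8% of all tested rows. The median log2 fold change was -0.06 over the tested members and -0.07 over all tested rows. Levels are in FPKM, a count of sequenced fragments scaled to transcript length and library depth, and a fold is the ratio of group means. Tests are limma on log2(FPKM + 0.5) with Benjamini-Hochberg adjustment over all tested rows, and each log2 fold change is the KO mean less the WT mean on that scale. These are bulk libraries, so fewer cells that express a gene and less RNA per cell cannot be told apart.

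**Figure D1:**
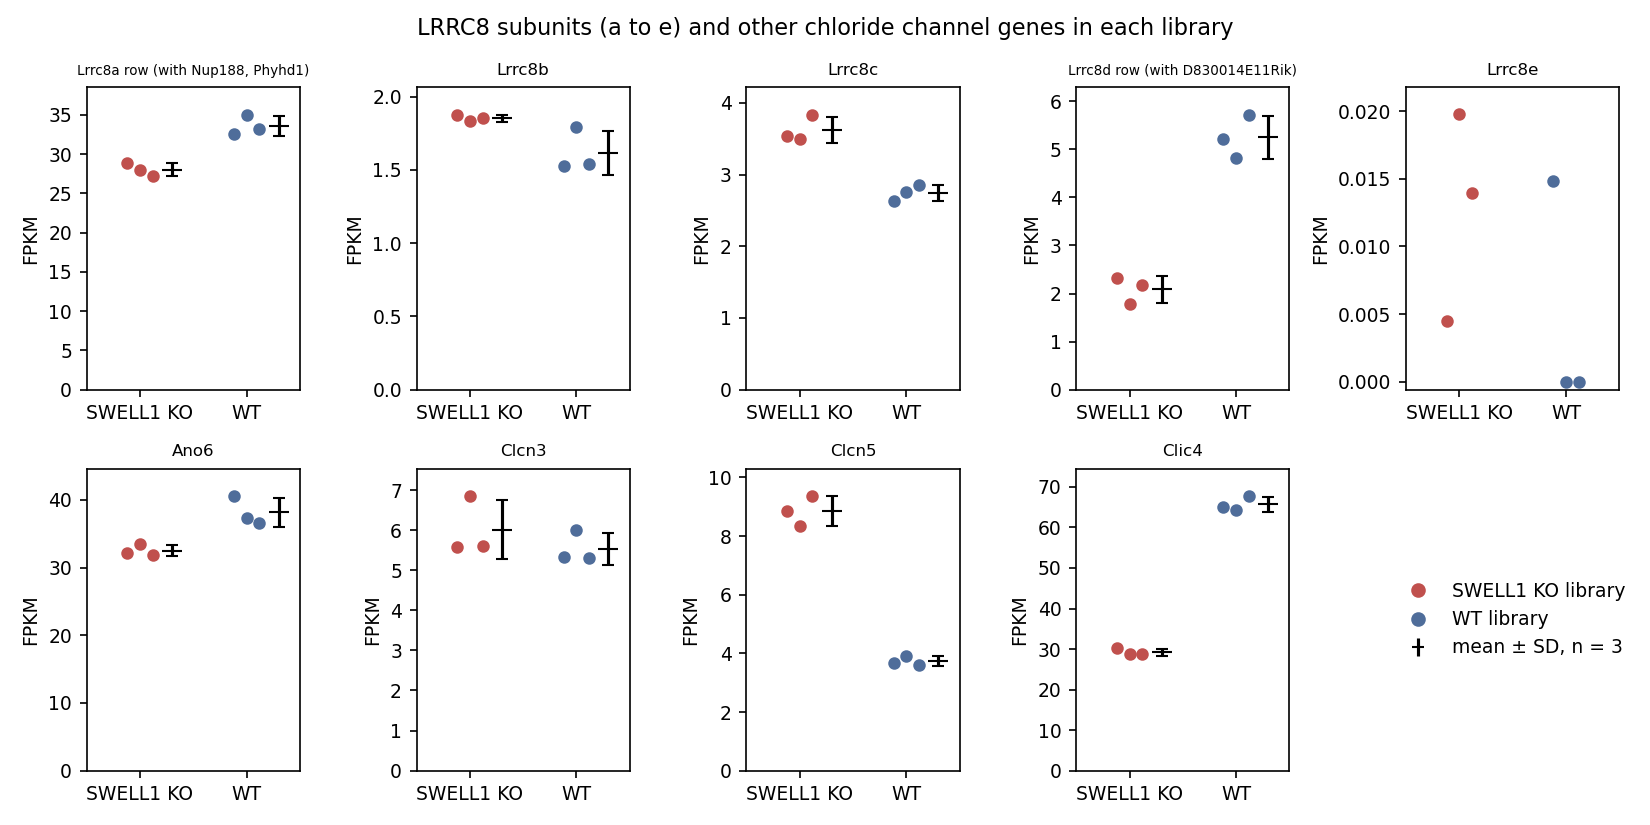
Level of each member in FPKM (y axis, from 0, with its own scale per panel) in the 3 SWELL1 KO and 3 WT libraries; points are libraries, and bars are mean ± SD over 3 libraries, left out for Lrrc8e because 2 WT libraries are listed at 0. Clcn5 and Lrrc8c sit higher in every KO library than in any WT library, Clic4 and the Lrrc8a, Lrrc8d and Ano6 rows lower, and Clcn3 overlaps.

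Facts of the whole table bear on these values. Depth, estimated from the lowest values of 1183 long single-transcript genes, was, in units of 1e6 fragments, 18.3 to 25.9 in KO libraries and 17.1 to 20.8 in WT libraries. The row AC166252.2 took 16.7% to 23.7% of the FPKM sum in KO libraries and 0% to 2.1% in WT libraries, and setting the sums without it equal moved the median log2 fold change of all tested rows from -0.07 to 0.04. Calls of members with small changes can depend on the scaling, as the Lrrc8a row and Ano6 show. Of 12 adipocyte markers, 10 had a row of their own. Lep was at 0 in every library. Cidec, Cfd and Cd36 were below 1 FPKM in every library and were not tested, but their groups did not overlap. Cidec averaged 0.00798 FPKM in KO and 0.652 FPKM in WT. Cfd and Cd36 were at 0 in every KO library and averaged 0.845 and 0.762 FPKM in WT. Adipoq reached at most 0.0443 FPKM in KO and 1.87 FPKM in WT. The summed level of the adipocyte markers was 113 to 158 FPKM in KO libraries and 284 to 367 FPKM in WT libraries. That of 9 preadipocyte and stromal markers was 4456 to 4744 FPKM in KO and 4897 to 5550 FPKM in WT. Every adipocyte marker listed above 0 had a lower mean in KO, while markers within the stromal and epithelial lists went both ways. Fabp4, a fatty acid carrier, averaged 3.44 FPKM in KO and 159 FPKM in WT. Pparg (means 0.127 FPKM in KO and 1.83 FPKM in WT) and Plin1 (0.101 and 1.01 FPKM) were lower in KO too. Their KO means were below the filter of 0.5 FPKM, which these rows reached only through their WT level. Lpl and Lipe did not pass, and their groups overlapped. They averaged 123 and 6.22 FPKM in KO, against 151.5 and 7.01 FPKM in WT. Of the stromal markers Pdgfra, Dlk1, Thy1, Col1a1 and Lum were lower in KO, and Pdgfrb, Col3a1 and Dcn were higher. Of 6 macrophage markers 4 were below 1 FPKM in every library, with sums of 20.1 to 30.6 FPKM in KO and 20.0 to 23.5 FPKM in WT that came mostly from Cd14. Lyz2, another of them, averaged 0.171 FPKM in KO and 1.51 FPKM in WT. Sums of 5 endothelial markers were 2.06 to 2.45 FPKM in KO and 0.457 to 0.659 FPKM in WT, with Kdr and Tek near 0. They came mostly from Vwf, which averaged 1.71 FPKM in KO and 0.418 FPKM in WT. Cdh5 averaged 0.298 FPKM in KO and 0.00482 FPKM in WT, and Pecam1 overlapped between the groups. Sums of 5 epithelial markers were 1.69 to 1.78 FPKM in KO and 4.26 to 4.50 FPKM in WT, with Epcam at 0. Of the epithelial markers, Krt7 averaged 0.33 FPKM in KO and 4.35 FPKM in WT, while Krt8 averaged 1.32 FPKM in KO and was listed at 0 in every WT library. The part of these marker differences in the results on chloride channels was not tested.

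Lrrc8a, the targeted gene, comes first. Its row stood at 28.8, 28.0 and 27.3 FPKM in KO replicates 1, 2 and 3, against 32.5, 35.0 and 33.2 FPKM in WT replicates 1, 2 and 3. Every KO library was below every WT library, by 16.5% of the mean (log2 fold change -0.26, SE 0.04, limma adjusted p = 0.00322). Quantile normalization ended this call, with a log2 fold change of -0.10 (adjusted p = 0.105), and so did setting the sums equal without AC166252.2, with -0.14 (adjusted p = 0.0634). Lrrc8a lies on the plus strand of chromosome 2 from 30237715 to 30263790 (GRCm38, GENCODE M21), followed on the same strand by Phyhd1 (30266203 to 30282149) and by Nup188, a nuclear pore gene (30286397 to 30344266). The annotation also holds 2 protein-coding genes on that strand which span the gaps, Gm28035 (30240567 to 30282148) from Lrrc8a into Phyhd1 and Gm28038 (30281043 to 30301078) from Phyhd1 into Nup188. The row therefore cannot show how much RNA came from Lrrc8a itself, and the values are no check of the knockout labels. Dolk, on the minus strand between Phyhd1 and Nup188 (30284231 to 30286334), was looked at after its values were seen: it was listed at 0 in all 3 KO libraries, against 1.64, 2.04 and 2.15 FPKM in WT replicates 1, 2 and 3. How fragments were divided among overlapping genes at this locus was not tested.

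Lrrc8b, Lrrc8c and Lrrc8d lie next to one another on the plus strand of chromosome 5, Lrrc8b from 105415775 to 105490074, Lrrc8c from 105519388 to 105613018 and Lrrc8d from 105699969 to 105832436. The gaps between them are 29.3 and 87 kb. The RNA of these neighbours did not move as a block: the Lrrc8d row fell, Lrrc8c rose and Lrrc8b did not pass. D830014E11Rik, a noncoding RNA that shares the Lrrc8d row, lies within the last stretch of Lrrc8d (105826560 to 105832437 in RefSeq), and the antisense gene Lrrc8dos lies inside Lrrc8d on the minus strand (105814773 to 105818988). No source used here says whether reads kept their strand, so fragments of Lrrc8d cannot be told apart from those of overlapping RNAs.

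The promoter windows of these 3 adjacent paralogs are shown, chosen after their directions were seen. Each is 300 bases that end shortly after a start, from RefSeq on GRCm38.p6, plus strand, 5′ to 3′. Capitals mark GC boxes (GGGCGG, or CCGCCC on the other strand) and CCAAT boxes (CCAAT, or ATTGG on the other strand), and no matches overlap one another. The windows are chr5:105415525-105415824 for Lrrc8b, chr5:105519221-105519520 for Lrrc8c, chr5:105699719-105700018 for the first Lrrc8d start and chr5:105700560-105700859 for the second.
Lrrc8b: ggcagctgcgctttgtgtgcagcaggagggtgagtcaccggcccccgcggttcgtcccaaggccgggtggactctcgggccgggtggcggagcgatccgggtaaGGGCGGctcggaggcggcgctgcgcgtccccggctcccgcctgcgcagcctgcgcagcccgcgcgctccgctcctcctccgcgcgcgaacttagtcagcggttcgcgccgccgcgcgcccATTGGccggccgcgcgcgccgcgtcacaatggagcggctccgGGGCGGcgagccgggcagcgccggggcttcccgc
Lrrc8c: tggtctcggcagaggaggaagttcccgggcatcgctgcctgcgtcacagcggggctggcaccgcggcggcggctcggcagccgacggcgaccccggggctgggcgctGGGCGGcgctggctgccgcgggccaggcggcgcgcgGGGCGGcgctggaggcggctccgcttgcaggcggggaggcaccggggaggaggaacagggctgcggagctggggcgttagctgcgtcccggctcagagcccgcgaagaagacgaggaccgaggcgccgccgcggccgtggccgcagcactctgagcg
Lrrc8d, first start: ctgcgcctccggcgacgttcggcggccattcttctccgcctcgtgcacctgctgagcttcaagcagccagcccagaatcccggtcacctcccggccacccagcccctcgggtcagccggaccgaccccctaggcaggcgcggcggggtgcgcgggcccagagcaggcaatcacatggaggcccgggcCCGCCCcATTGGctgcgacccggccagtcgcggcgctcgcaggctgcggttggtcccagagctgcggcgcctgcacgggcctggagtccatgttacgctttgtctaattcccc
Lrrc8d, second start: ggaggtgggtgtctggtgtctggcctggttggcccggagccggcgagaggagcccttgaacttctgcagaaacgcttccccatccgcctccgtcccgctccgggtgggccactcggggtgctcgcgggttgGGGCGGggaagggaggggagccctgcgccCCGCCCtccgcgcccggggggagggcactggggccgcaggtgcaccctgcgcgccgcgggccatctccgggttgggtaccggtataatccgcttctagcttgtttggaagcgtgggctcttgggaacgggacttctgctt

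All 4 windows were rich in CpG pairs, with 51 in Lrrc8b, 44 in Lrrc8c and 31 and 27 at the first and second Lrrc8d starts, against a median of 7 over 32851 RefSeq promoter windows of the same 300 bases. GC boxes were found in each, 2 in Lrrc8b, 2 in Lrrc8c and 1 and 2 at the Lrrc8d starts, and 35.7% of all windows hold at least 1. A CCAAT box was found in Lrrc8b and at the first Lrrc8d start, and 37.4% of all windows hold one. The letters TATAAA (or TTTATA) were in none of the 4, and are in 13.6% of all windows. Lrrc8c and the second Lrrc8d start had the same counts of both boxes, and the first Lrrc8d start had other counts. Whether these letters bear on the directions of change was not tested. Which Lrrc8d start these cells use was not measured.

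Lrrc8d encodes the subunit that, in human cells, lets the channel pass uncharged osmolytes and platinum drugs. The Lrrc8d row stood at 2.32, 1.77 and 2.18 FPKM in KO replicates 1, 2 and 3, against 5.22, 4.81 and 5.72 FPKM in WT replicates 1, 2 and 3. Even the highest KO library was below the lowest WT library by more than the range within either group. The means were 2.09 ± 0.28 FPKM in KO and 5.25 ± 0.45 FPKM in WT (SD, n = 3 each), a log2 fold change of -1.15 (SE 0.11, limma adjusted p = 2.4e-04). Over the 16 alternative settings the log2 fold change stayed between -1.29 and -1.02 and the adjusted p at or below 0.00185. Of all tested rows, 84.7% had a smaller absolute change.

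Lrrc8c encodes a subunit known in mice for passing cyclic dinucleotides, and it has also been described as a gene induced in mouse preadipocytes when they begin to differentiate. Its level was 3.54, 3.50 and 3.83 FPKM in KO replicates 1, 2 and 3, against 2.63, 2.76 and 2.85 FPKM in WT replicates 1, 2 and 3. All KO libraries were above all WT libraries, with a gap wider than the spread within either group. The fold was 1.32 (log2 fold change 0.34, SE 0.07, limma adjusted p = 0.00509), and it passed under each of the 16 alternatives, with adjusted p from 0.00254 to 0.0182. In absolute size the change was below the median of this table, since only 40.5% of tested rows changed less.

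Lrrc8b, a less studied subunit, was at 1.87, 1.83 and 1.85 FPKM in KO replicates 1, 2 and 3, against 1.52, 1.79 and 1.54 FPKM in WT replicates 1, 2 and 3. The groups did not overlap, but WT replicate 2 came close to the lowest KO library. The log2 fold change was 0.15 with a 95% interval of -0.06 to 0.36 (limma adjusted p = 0.162), and it passed under none of the 16 alternatives, whose smallest adjusted p was 0.0543. Lrrc8e, the subunit with the most restricted expression in mice, was close to absent at this depth: 0.00446, 0.0198 and 0.0140 FPKM in KO replicates 1, 2 and 3, and 0.0149 FPKM in WT replicate 1, with WT replicates 2 and 3 listed at 0. At the estimated depths and the longest annotated transcript of 3878 bases, the highest of these values stands for about 2 fragments. Lrrc8e was below the filter on low values and was not tested. For the other single-gene subunits the same estimate gave 175 to 319 fragments for Lrrc8b and 314 to 632 for Lrrc8c.

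The rows were next set against one another within each library, as shares of the summed FPKM of the LRRC8 rows, which do not depend on a scaling factor common to a library. Over all 5 rows, the Lrrc8d row held 6.34%, 5.05% and 6.19% of the sum in KO replicates 1, 2 and 3, against 12.5%, 10.8% and 13.2% in WT replicates 1, 2 and 3. Lrrc8c held 9.67%, 9.95% and 10.9% in KO, against 6.28%, 6.22% and 6.58% in WT, and Lrrc8b 5.13%, 5.21% and 5.27% in KO, against 3.64%, 4.04% and 3.55% in WT. For these 3 rows the KO and WT shares did not overlap (two-sided exact permutation p = 0.1 each, the smallest that 3 against 3 libraries allow, and 0.167 after Benjamini-Hochberg adjustment over 5 shares). No share could therefore pass 0.05 by this test.

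The Lrrc8a row made up most of that sum, 78.7 ± 1.08% in KO and 77.7 ± 1.12% in WT (SD, n = 3 each), and its shares overlapped (exact permutation p = 0.5). Since that row holds 3 genes, the shares were also taken without it. Then the Lrrc8d row held 30.0%, 24.9% and 27.6% in KO replicates 1, 2 and 3, against 55.6%, 51.4% and 56.6% in WT replicates 1, 2 and 3. Lrrc8c held 45.7%, 49.1% and 48.7% in KO, against 28.0%, 29.5% and 28.2% in WT. Lrrc8b held 24.5 ± 1.12% in KO and 16.9 ± 2.03% in WT (SD, n = 3 each). The leading row among these 4 was thus Lrrc8c in every KO library and the Lrrc8d row in every WT library (exact permutation p = 0.1 for the share of each, 0.133 adjusted over 4 shares). Shares of one sum depend on each other, and the level of Lrrc8b itself did not pass the test.

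**Figure D2:**
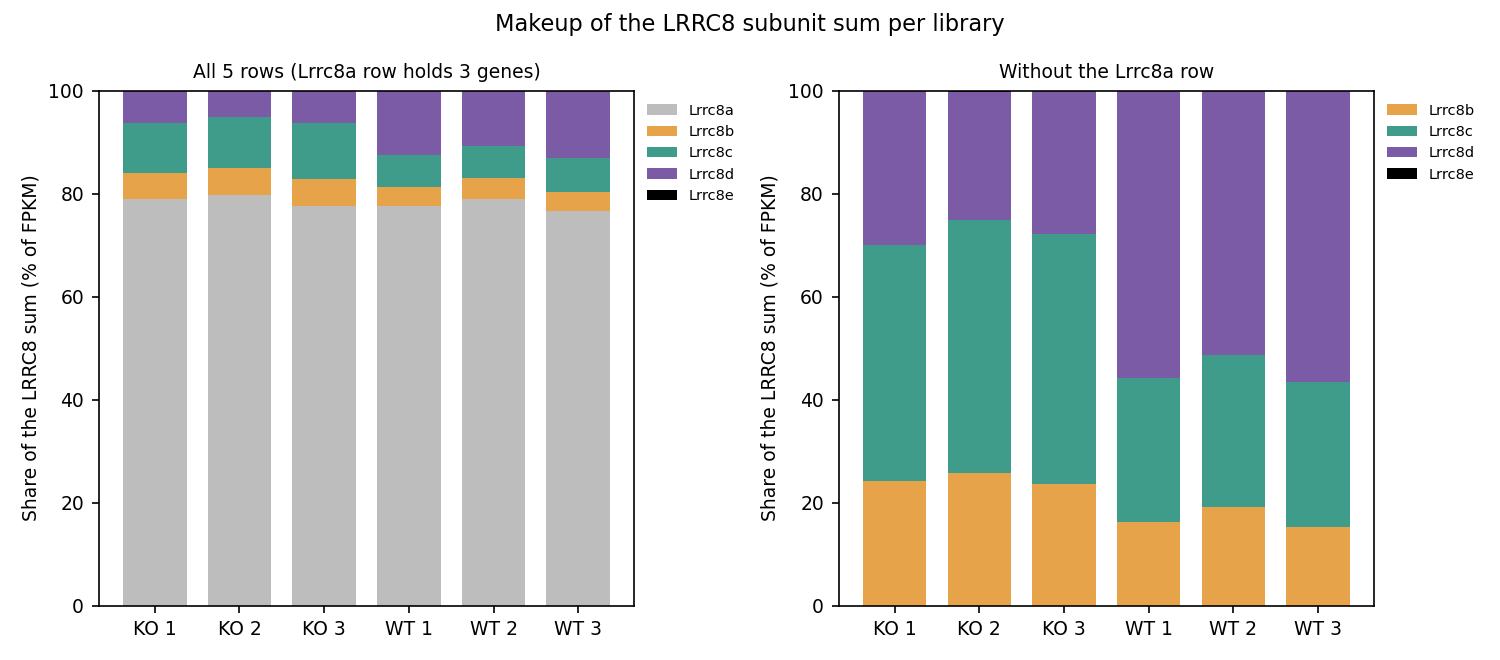
Share of each LRRC8 row in the summed FPKM (y axis, percent) for the 3 KO and 3 WT libraries, over all 5 rows (left) and without the Lrrc8a row, which holds 3 genes (right). Without that row, the Lrrc8d row holds 24.9% to 30.0% in KO libraries and 51.4% to 56.6% in WT libraries, and Lrrc8e is too low to be seen.

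The ratio of Lrrc8c to the Lrrc8d row, in FPKM, was 1.53, 1.97 and 1.76 in KO replicates 1, 2 and 3, against 0.505, 0.574 and 0.499 in WT replicates 1, 2 and 3. It lay above 1 in each KO library and well below 1 in each WT library. The ratio of Lrrc8b to the Lrrc8d row was 0.897 ± 0.119 in KO and 0.311 ± 0.0542 in WT, while that of Lrrc8b to Lrrc8c moved little, at 0.512 ± 0.0254 in KO and 0.589 ± 0.0554 in WT (SD, n = 3 each). For each of these 3 ratios the groups did not overlap, and the two-sided exact permutation test of the log2 ratio gave p = 0.1, also after adjustment over the 3 ratios. The 4 rows without the Lrrc8a row summed to 7.58 ± 0.40 FPKM in KO and 9.62 ± 0.42 FPKM in WT (SD, n = 3 each; exact permutation p = 0.1).

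Clic4, a chloride intracellular channel protein that occurs in soluble and membrane-bound forms, had the smallest adjusted p of the members. Its level was 30.2, 28.7 and 28.9 FPKM in KO replicates 1, 2 and 3, against 65.1, 64.3 and 67.8 FPKM in WT replicates 1, 2 and 3. Both groups were tight, with an SD of 2.79% of the mean in KO and 2.76% in WT. The log2 fold change was -1.16 (SE 0.04, limma adjusted p = 7.12e-06), and it stayed between -1.18 and -0.98 over the 16 alternatives. Clic1, a relative from the same family, went the other way, at 202, 285 and 287 FPKM in KO, against 175, 131 and 128 FPKM in WT (log2 fold change 0.83, SE 0.19, limma adjusted p = 0.00926). Clic5 and Clic6 were close to 0.

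Clcn5 encodes an exchanger of chloride for protons on endosomes, known from Dent disease, a human kidney disorder in which it is lost. Its level was 8.85, 8.35 and 9.37 FPKM in KO replicates 1, 2 and 3, against 3.68, 3.92 and 3.61 FPKM in WT replicates 1, 2 and 3. Each KO library had more than double the level of any WT library, as the means of 8.86 ± 0.51 FPKM in KO and 3.74 ± 0.16 FPKM in WT show (SD, n = 3 each). The log2 fold change was 1.14 (SE 0.06, limma adjusted p = 3.3e-05), from 1.06 to 1.25 over the 16 alternatives.

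Clcn3, a close relative that also sits on endosomes, was at 5.59, 6.85 and 5.60 FPKM in KO replicates 1, 2 and 3, against 5.32, 5.998 and 5.30 FPKM in WT replicates 1, 2 and 3. The groups overlapped, replicate 2 being the highest in both. The log2 fold change was 0.11 with a 95% interval of -0.14 to 0.35 (limma adjusted p = 0.381), and the change seen for Clcn5 lies outside that interval. In KO libraries Clcn5 was above Clcn3, and in WT libraries Clcn3 was above Clcn5, without overlap in either case.

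Ano6 encodes an anoctamin that, when calcium rises, moves phospholipids between the leaflets of the plasma membrane and conducts ions. Its level was 32.2, 33.4 and 31.9 FPKM in KO replicates 1, 2 and 3, against 40.6, 37.3 and 36.5 FPKM in WT replicates 1, 2 and 3. The groups did not overlap, but the highest KO and the lowest WT library were close. The log2 fold change was -0.23 (SE 0.05, limma adjusted p = 0.00974). It no longer passed after quantile normalization, at a log2 fold change of -0.06 (adjusted p = 0.326), or with sums set equal without AC166252.2, at -0.11 (adjusted p = 0.159).

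Since FPKM are per length, levels can be set in order. In KO libraries the order by mean was Ano6, Clic4, the Lrrc8a row, Clcn5, Clcn3, Lrrc8c, the Lrrc8d row, Lrrc8b and Lrrc8e. There, the libraries of Clic4 overlapped with those of the Lrrc8a row, and those of the Lrrc8d row with those of Lrrc8b. In WT libraries the order was Clic4, Ano6, the Lrrc8a row, Clcn3, the Lrrc8d row, Clcn5, Lrrc8c, Lrrc8b and Lrrc8e, and Clcn3 overlapped with the Lrrc8d row. The Lrrc8d row stood below Lrrc8c in KO and above it in WT.

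**Figure D3:**
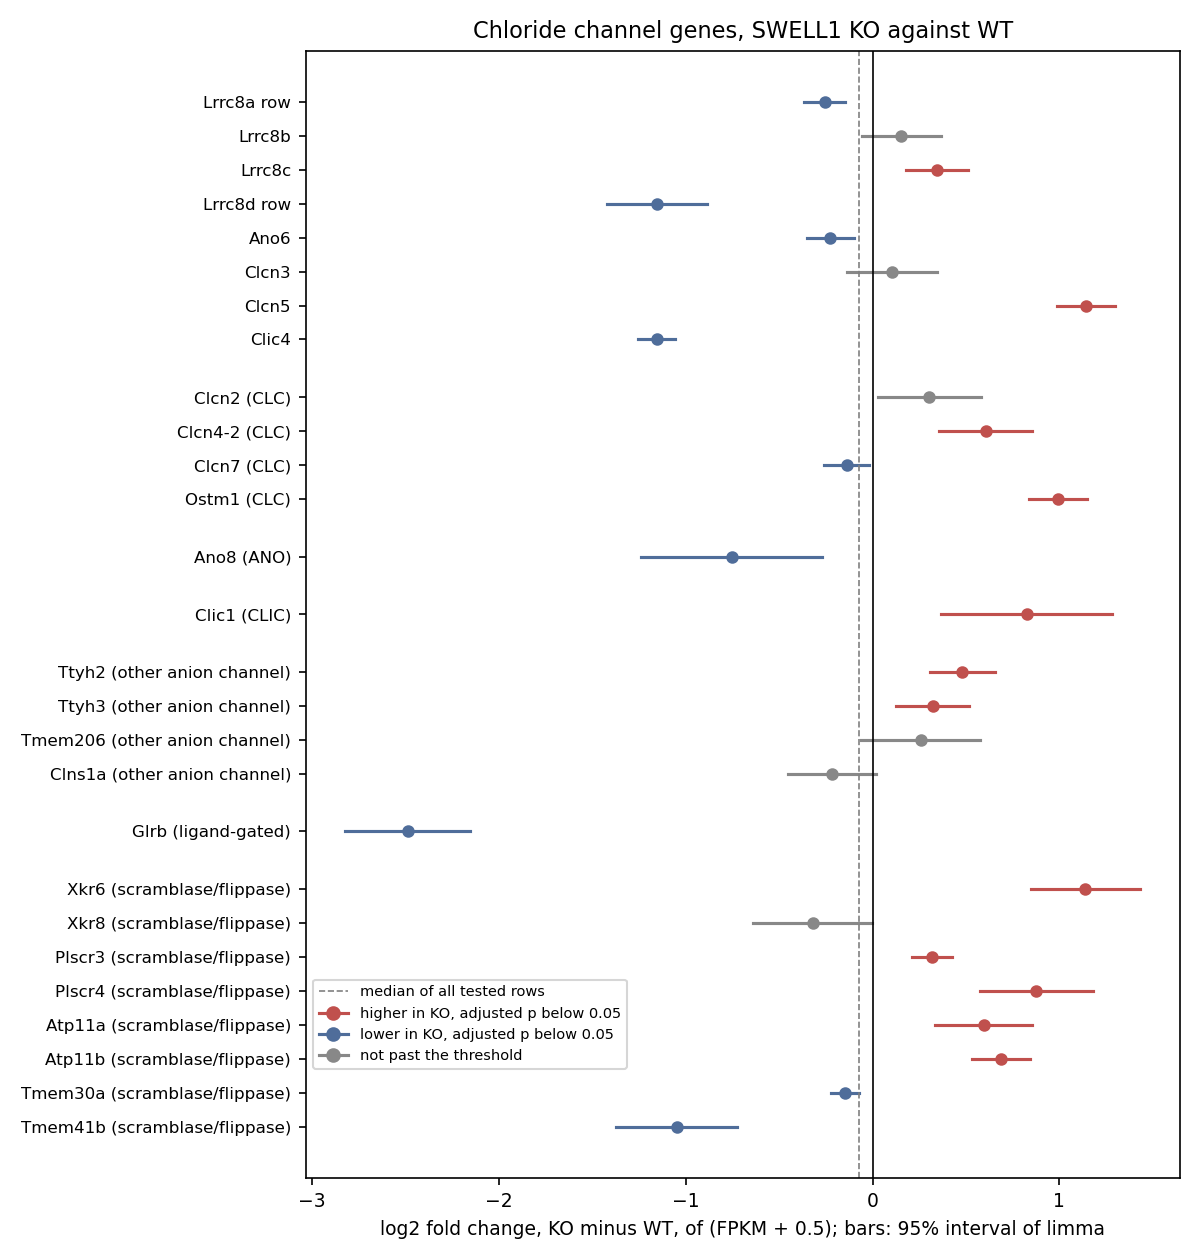
Log2 fold change, KO minus WT, of FPKM + 0.5 (x axis) with the 95% interval of limma for the 8 tested members and tested genes of the lists of related genes, those with a library at 0 and 1 gene not reported here left out; the dashed line is the median of all tested rows (-0.07). Clcn5 and Ostm1 stand near 1, Clic4 and the Lrrc8d row near -1.15, and Tmem30a, shown as lower, changes sign under quantile normalization.

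Other chloride channel genes, with phospholipid scramblases and flippase parts, were taken from lists drawn up by family. Of 74 listed genes 66 had a row, 25 of these were at 0 in every library, and 22 were tested, of which 11 were higher in KO, 6 were lower and 5 did not pass. Over all tested rows 28.5% were higher, 36.7% were lower and 65.2% passed in either direction, so the share that passed is not far from the background. The lower calls rest in part on the scaling: 3 were left under median-ratio scaling, quantile normalization and equal sums without AC166252.2, where Clcn7, Clcc1 and Tmem30a no longer passed, and 12, 12 and 13 genes were higher in that order. Without KO replicate 1 or KO replicate 2, 3 genes were lower in each case. Among the CLC family and its partners 2 of 4 tested genes were higher and 1 was lower, with a median log2 fold change of 0.46 against -0.07 over all tested rows, and 3 in 4 is near the 65.2% of all tested rows that passed. The fourth, Clcn2, a plasma membrane chloride channel, had a log2 fold change of 0.30 (limma adjusted p = 0.0554) and passed under each of the 3 scalings (adjusted p = 0.0331, 0.0412 and 0.0297). Clcn4-2, another endosomal exchanger, was 1.60-fold higher, at 5.68 ± 0.70 FPKM in KO and 3.55 ± 0.20 FPKM in WT (SD, n = 3 each; limma adjusted p = 0.00258). Ostm1, the partner protein that ClC-7 needs on lysosomes, was 2.09-fold higher, at 10.2 ± 0.27 FPKM in KO and 4.87 ± 0.34 FPKM in WT (SD, n = 3 each; limma adjusted p = 5.11e-05). Clcn7 itself was at 11.1 ± 0.49 FPKM in KO and 12.3 ± 0.19 FPKM in WT (SD, n = 3 each), and its call (limma adjusted p = 0.0464) was lost in 12 of the 16 alternatives, among them each fit without 1 library other than KO replicate 3 (adjusted p 0.0824 without KO replicate 1, 0.124 without KO replicate 2, and 0.112, 0.107 and 0.0785 without WT replicates 1, 2 and 3).

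Of the 8 other anoctamins, 3 were at 0 in every library and Ano8 alone was tested. Ano8, an anoctamin known from contacts between the endoplasmic reticulum and the plasma membrane, was at 10.9, 10.7 and 16.0 FPKM in KO replicates 1, 2 and 3, against 17.9, 25.3 and 20.6 FPKM in WT replicates 1, 2 and 3 (log2 fold change -0.75, limma adjusted p = 0.0164). Its call was lost without KO replicate 1 or 2 (adjusted p = 0.0553 and 0.0552). Ano1, the calcium-activated chloride channel of epithelia, did not exceed 0.0823 FPKM in KO and was at 0 in WT.

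Among 6 tested genes of other anion channels and their regulators 2 were higher and 1 was lower in KO (median log2 fold change 0.29), a smaller share than the 65.2% of all tested rows. Ttyh2 and Ttyh3, of the tweety family, were 1.41-fold and 1.26-fold higher (limma adjusted p = 0.00155 and 0.0132). Clcc1, a channel protein of the endoplasmic reticulum, was listed at 0, 0 and 14.8 FPKM in KO replicates 1, 2 and 3. It was at 22.7, 22.5 and 22.4 FPKM in WT. Clcc1 thus held a 0 beside a positive value within a group, and such a 0 can be a failed estimate. Its call (limma adjusted p = 0.0478) was lost in 13 of the 16 alternatives, including each fit without 1 library other than KO replicate 3 (adjusted p = 0.134 and 0.135 without KO replicates 1 and 2, and 0.11, 0.108 and 0.11 without WT replicates 1, 2 and 3). Of the genes that did not pass, Clns1a passed without KO replicate 3 (adjusted p = 0.0293), and so did Xkr8 (adjusted p = 0.0487). Cftr was below 0.04 FPKM in every library.

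Of the 20 ligand-gated chloride channels with a row, 17 were listed at 0 in every library, where a 0 can also be a failed estimate. Glrb, the beta subunit of the glycine receptor, was the one tested, at 0.705, 0.372 and 0.529 FPKM in KO replicates 1, 2 and 3, against 5.06, 5.14 and 5.60 FPKM in WT replicates 1, 2 and 3 (log2 fold change -2.49, SE 0.14, limma adjusted p = 3.02e-05). No alpha subunit of that receptor was listed above 0.08 FPKM.

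Because Ano6 moves phospholipids, genes of scramblase families, flippases and flippase parts were listed as well. Not every gene on this list shares the function of Ano6. Of 9 tested, 6 were higher and 2 lower in KO (median log2 fold change 0.59), against 28.5% higher and 36.7% lower over all tested rows. Xkr8 alone did not pass (log2 fold change -0.32, limma adjusted p = 0.0705). One of the lower calls, Tmem30a, the subunit that flippases share, was small (log2 fold change -0.15, limma adjusted p = 0.00606): it was lost under each of the 3 scalings (adjusted p = 0.0557, 0.278 and 0.584) and changed sign under quantile normalization, to 0.04. The flippase genes Atp11a and Atp11b, which move aminophospholipids back to the inner leaflet, were 1.52-fold and 1.63-fold higher, with limma adjusted p of 0.00342 and 2.01e-04. Plscr4 of the phospholipid scramblase family and Xkr6 of the XK-related family were 2.47-fold and 3.67-fold higher at low levels of 1.64 ± 0.23 and 1.52 ± 0.20 FPKM in KO, against 0.665 ± 0.081 and 0.413 ± 0.034 FPKM in WT (SD, n = 3 each; limma adjusted p = 0.00126 and 3.6e-04). The WT mean of Xkr6 was below the filter of 0.5 FPKM, which the row reached only through its KO level. With a filter at a mean of 1 FPKM, Xkr6 was not tested. Tmem41b, a scramblase of the endoplasmic reticulum, was lower, at 18.2 ± 3.57 FPKM in KO and 37.7 ± 0.68 FPKM in WT (SD, n = 3 each; limma adjusted p = 7.98e-04).

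Likeness to the members was measured over the 6 libraries as the root mean square difference of log2(FPKM + 0.5), each row taken relative to its WT mean, among single-gene rows of at least 5 FPKM with no library at 0. Closest to the Lrrc8d row were Cry1 (0.056) and Crcp (0.062), and 127 of 6867 rows lay within 0.15. Closest to Lrrc8c were Cst3 (0.014) and Eif3d (0.024), with 909 rows within 0.15. Closest to the Lrrc8a row were Snrpd2 (0.012) and Rpl27 (0.016), with 1402 rows within 0.15. Clcn5 was most like Snx25 (0.028) and Pcdhga3 (0.042), Clic4 most like Ddx47 (0.023) and Ttc26 (0.029), and Ano6 most like Emc6 (0.024) and Ppig (0.028). Of 6866 rows, 154 lay within 0.15 of Clcn5, 237 of Clic4 and 1347 of Ano6. With 2 groups of libraries, such likeness mostly means a similar difference between KO and WT. Zfp326, the next gene after Lrrc8d on chromosome 5 (105876565 to 105915818), was looked at after its values were seen. It was at 11.1, 12.2 and 11.2 FPKM in KO replicates 1, 2 and 3, against 6.84, 7.01 and 7.81 FPKM in WT replicates 1, 2 and 3, so its KO libraries lay above its WT libraries, as those of Lrrc8c did on the other side of the Lrrc8d row.

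**Figure D4:**
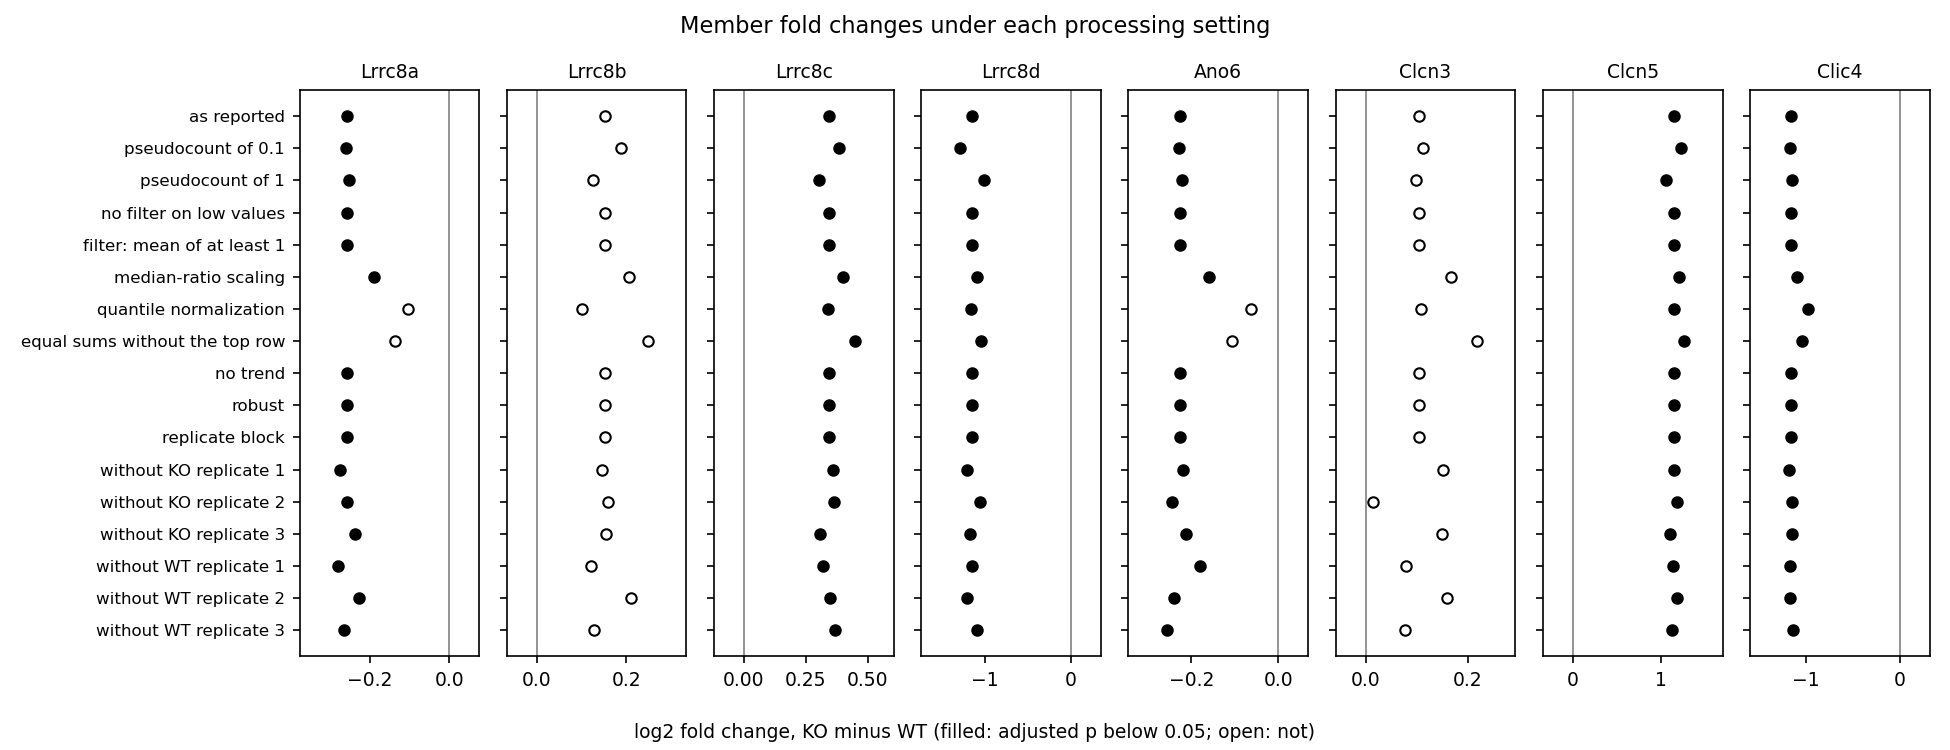
Log2 fold change, KO minus WT, of each tested member (x axis, own scale per panel) as reported and under the 16 alternative settings (rows); filled points have an adjusted p below 0.05. Clcn5, Clic4, Lrrc8c and Lrrc8d stay filled throughout, the Lrrc8a and Ano6 rows turn open under quantile normalization and under equal sums without the top row, AC166252.2, and Lrrc8b and Clcn3 are open circles throughout.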

How the data were processed

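RNA was measured by sequencing in 3 SWELL1 KO and 3 WT libraries, grouped by the titles in the labels. The authors deposited a single table, 31097 rows by 6 libraries. The deposited values are taken as FPKM, since no label or header names the unit. The submitters' processing notes name Cufflinks 2.02, TopHat and the build GRCm38, with no settings or annotation release. Cufflinks joins overlapping transcripts into 1 row, and 659 rows carry more than 1 name. A 0 can be a failed estimate: among 8117 rows that reached 5 FPKM somewhere, 259 held a 0 beside positive values within a group. Depth is an estimate from low values, since FPKM hold no counts.

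The 10515 rows whose mean reached 0.5 FPKM were tested with limma 3.58.1 in R 4.3.3 on log2(FPKM + 0.5), with a mean-variance trend, two-sided, Benjamini-Hochberg adjusted, threshold 0.05. The steps were also run on simulated data. Far fewer rows changed there than were called here, so that run is no check of these calls. Shares were compared with two-sided exact permutation tests (scipy 1.17.1). Within groups, 24.6% to 30.3% of rows at 10 FPKM or more differed by over 10%, so no library looked like a repeat of another. Lists of related genes used rows with a single name. From each list, the passing genes were named, up to the 6 with the largest absolute change. Of these, 1 gene is counted but not reported here. Clcn2, Tmem30a, Tmem206, Clns1a, Xkr8 and the single cell type markers were named after their values were seen. The named genes also took in every member, the genes in members' rows and the 2 rows most like each passing member. The members and lists were chosen with earlier results of these data known. Promoters and coordinates come from RefSeq and GENCODE M21, both on GRCm38, and the 9 members with a row all matched. Alternatives were the pseudocount, filter, scaling, trend, robust fit, a replicate block and leaving out each library.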

Additional observations from a re-analysis of the deposited data

How the results depend on the processing

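Over 16 alternatives, the log2 fold changes of all 8 tested members kept their direction, and the calls of Clcn5, Clic4, Lrrc8c and the Lrrc8d row were kept in each. Under quantile normalization and with sums set equal without AC166252.2, the members lower in KO numbered 2 rather than 4, since the Lrrc8a row and Ano6 no longer passed. The rows called over the whole table numbered 6325 to 7595, against 6860 as reported, and the share of calls higher in KO was 42.8% to 53.4%, against 43.7%. Fits without 1 library gave 6325 to 6528 calls and 6 called members each.

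The difference of subunit shares, KO minus WT in percentage points, was 1.01 for the Lrrc8a row, 1.46 for Lrrc8b, 3.82 for Lrrc8c, -6.30 for the Lrrc8d row and 0.0242 for Lrrc8e. Leaving out 1 library gave 0.48 to 1.59, 1.36 to 1.61, 3.45 to 4.07, -6.96 to -5.79 and 0.0141 to 0.0362 in that order. Under quantile normalization it was 3.12 for the Lrrc8a row, 0.901 for Lrrc8b and 3.11 for Lrrc8c, and it turned to -0.00551 for Lrrc8e, whose values rest on a few fragments. Without the Lrrc8a row in the sum it was 7.62 for Lrrc8b, 19.3 for Lrrc8c, -27.0 for the Lrrc8d row and 0.118 for Lrrc8e, by construction, as the sum is smaller.

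The replicate numbers of the labels did not pair the libraries: same-numbered KO and WT libraries correlated at 0.003, 0.012 and -0.093 in their deviations from the group means. No library correlated best with its own number. With the replicate block, 6534 rows passed, and the same 6 members. Among the related genes the block gave 12 higher and 6 lower calls: Clns1a, Xkr8 and Tmem206 then passed (adjusted p = 0.0241, 0.0434 and 0.0281), and Clcn7 and Clcc1 did not (adjusted p = 0.0983 and 0.0547). The few fragments behind Lrrc8e limit any statement on it, and the shared rows limit those on Lrrc8a and Lrrc8d.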
